A study of Mus musculus with 8 samples.

Results

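G9a, the enzyme encoded by Ehmt2, was knocked down in murine skeletal myoblasts, and RNA was taken at day 1. The comparison rests on 4 of the 8 Illumina WG-6 v2.0 arrays of the series: 2 samples given siRNA against G9a (siG9a) at day 1 and 2 samples given scrambled control siRNA at day 1. The remaining 4 arrays hold the same treatments at day 0, again 2 samples each. The duplicates are labelled biological, the cells are labelled only as myoblasts from skeletal muscle, and what the days are counted from is not stated in the labels. For each of 31443 features (1 probe per named gene, plus single unnamed probes), the siG9a value minus the control value was taken within replicate 1 and within replicate 2. A difference of 0.5 log2 units or more in the same direction in both pairs was met by 21 features that were higher in siG9a (0.0668% of all features, 18 of them named genes) and by 26 that were lower (0.0827%, 25 of them named genes). No feature passed 0.5 in opposite directions.

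G9a places methyl groups on lysine 9 of histone H3 (H3K9), mostly as a complex with its partner GLP, the product of Ehmt1, and this mark is associated with silent genes. In skeletal muscle G9a is known as a brake on differentiation that also methylates the muscle transcription factor MyoD. Myoblasts divide until they leave the cell cycle, and only then do they switch on contractile genes and fuse.

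The deposited values are logarithms relative to each probe's own level, so levels of different genes cannot be set against each other, and the presence of a marker cannot be read from them. Their base is not stated; base 2 was assumed for every log2 difference and percentage. Each pair of values below gives replicate 1 and then replicate 2. Array medians at day 1 were -0.05 and 0.11 in siG9a, against -0.07 and 0.06 in control. The replicates stood apart in the same way in both treatments: 67 sarcomere and contraction genes had a median of 0.69 and -0.44 in siG9a, against 0.59 and -0.63 in control, and that of 13 fibroblast markers was -0.20 and 1.11 in siG9a, against -0.12 and 1.14 in control. A difference within a pair leaves out what the treatments share of that gap; the part that the rest plays was not tested.

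The model of 4 group means over all 8 arrays (limma, Benjamini-Hochberg adjusted p under 0.05) called 0 features at day 1, with 54 at an unadjusted p under 0.05 and a smallest adjusted p of 1. With 1 term for the replicate number limma again called 0, with 1195 at an unadjusted p under 0.05 and a smallest adjusted p of 0.993. A model with 1 term for each pair of arrays, added after the data were seen, called 48 features: 19 higher in siG9a (0.0604% of all features) and 29 lower (0.0922%). It had 2388 features at an unadjusted p under 0.05, where uniform p-values would give 1572. It is called the paired fit below. Standard errors (SE) and adjusted p-values come from it, with n = 2 arrays per group, and "called" refers to it. Each SE pools both days and leans mostly on the spread shared over all features. The calls of the paired fit include 15 of the 21 higher and 25 of the 26 lower features. Those features were chosen on the same differences, so these counts lend the members no support. The 8 called features outside the size rule were Cdkn1c, Ptn, Cdc42ep5, C920004C08Rik, Serpinb9f, Ckmt2, Pla1a and the unnamed probe ILMN_2527796. The groups did not overlap for 9 of the 21 (8.54% of all features) and 9 of the 26 (4.94%). The size rule used the same day 1 arrays and favours groups that do not overlap, so these counts lend no support either.

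**Figure D1:**
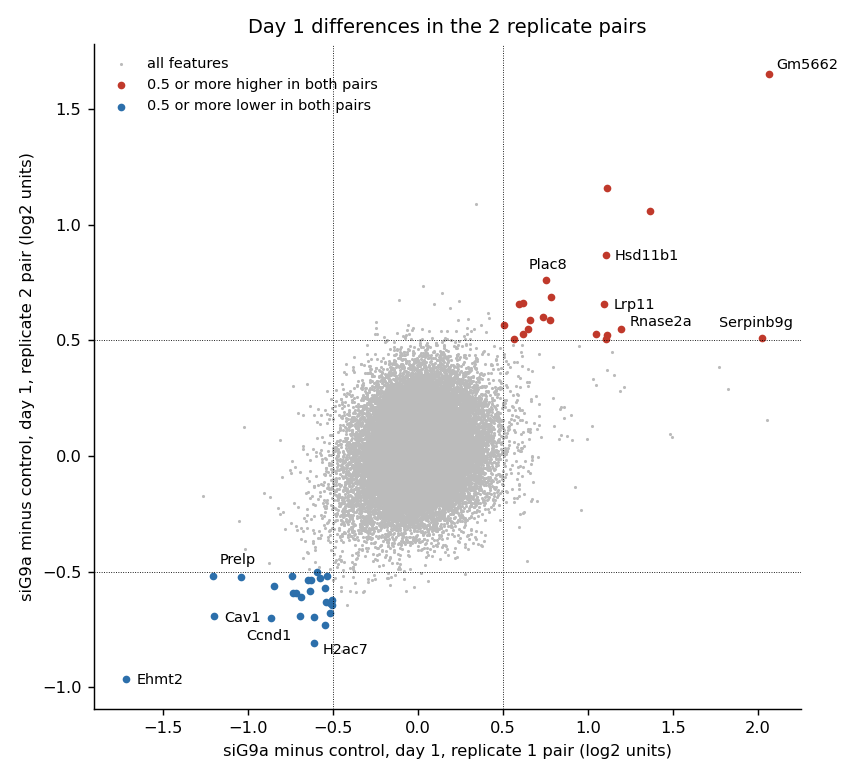
Each point is 1 of 31443 features, with the siG9a minus control difference at day 1 in the replicate 1 pair on the horizontal axis and in the replicate 2 pair on the vertical axis (log2 units). Dotted lines mark 0.5 in either direction; the 21 red features lie past it as higher in both pairs and the 26 blue ones as lower in both, with Gm5662 farthest up and Ehmt2 farthest down.

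Over all features the agreement between the pairs was weak. The differences of the 2 pairs correlated across features with a Pearson r of 0.212 and a Spearman rho of 0.165, where features are not independent and the pairs share no array. The same sign in both pairs was found for 33.2% of features as higher in siG9a and for 22.5% as lower. At 0.3 log2 units, 144 features were higher in both pairs, 172 were lower in both and 38 went opposite ways; at 0.4 these numbers were 41, 57 and 1. The members nearest the threshold were Gstk1 (0.50 and 0.57) and Pdlim2 (-0.59 and -0.50), and the features just outside it were Gldc (0.61 and 0.48) and Cdk1 (-0.50 and -0.54, the first of these just short of the threshold). Of 41 further probes for 25 of the members, 31 went the same way in both pairs, 7 had mixed signs and 3, for Gsta3, H2ac20 and Nmrk2, went the opposite way.

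Ehmt2, the target of the siRNA, read -0.95 and -0.31 in siG9a, against 0.77 and 0.66 in control. Both siG9a arrays lay below both control arrays. The siG9a signal was 30.4% and 51.3% of its control, a difference of -1.34 ± 0.16 (adjusted p = 0.000519 in the paired limma fit). The fall in array signal was larger in replicate 1. How much G9a RNA or protein remained cannot be read from these ratios. A second probe differed by -1.64 and -0.98, and the remaining one by only -0.22 and -0.10. Ehmt1, which encodes GLP, read -0.43 and 0.47 in siG9a, against -0.37 and 0.55 in control; its difference of -0.07 ± 0.11 was not called, and its other probe went 0.25 and -0.03.

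Among 29 measured genes of H3K9 methylation, 13 were higher in both pairs and 11 lower, with a median of 0.04, against 0.024 over all features; the median turned to -0.002 after quantile normalization. Ehmt2 and Uhrf1 were the 2 called, both lower. Uhrf1 recognises H3K9 methylation and newly copied DNA and recruits the maintenance DNA methyltransferase. It read -0.001 and -1.09 in siG9a, against 0.54 and -0.46 in control, 68.6% and 64.6% of control within the pairs (adjusted p = 0.0248, paired limma fit). Its other probe did not show this, with -0.004 and 0.16.

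Of the 26 lower features, 6 belong to the mitosis list, 2 to the replication list and 10 are H2A genes, while Ccnd1 stands in the list of cyclins. Ccnd1 encodes cyclin D1, which starts the passage out of G1 by activating its kinases. It read -0.49 and -0.41 in siG9a, against 0.38 and 0.29 in control, so the groups did not overlap. The difference of -0.78 ± 0.11 was called (adjusted p = 0.0046, paired limma fit), and both other Ccnd1 probes were lower in both pairs (-0.73 and -0.61; -0.67 and -0.53). Of 28 cyclins, CDKs, inhibitors, pocket proteins and E2F genes, 14 were lower in both pairs and 5 higher, with a median of -0.08.

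The other call in that list was an inhibitor. Cdkn1c, the imprinted gene for the CDK inhibitor p57, read -0.27 and 0.63 in siG9a, against 0.61 and 1.09 in control (-0.67 ± 0.12, adjusted p = 0.0157, paired limma fit). It was lower in all 4 pairs of the series, by -0.88 and -0.46 at day 1 and -0.52 and -0.59 at day 0. Cdkn1a, the gene for the inhibitor p21, differed by -0.04 and 0.03, and Cdkn1b, which encodes p27, differed by 0.05 in each pair. E2f1, an activator of S phase genes, differed by -0.33 and -0.41 and was not called (adjusted p = 0.312).

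DNA replication genes were mostly lower. Of 53 measured, 35 were lower in both pairs and 5 higher, with a median of -0.23 (-0.19 in pair 1, -0.22 in pair 2); 2 were called, Mcm5 and Uhrf1, both lower. The origin licensing genes, which load the replicative helicase, were lower in both pairs for 10 of 11, with a median of -0.34. Mcm5, a subunit of that helicase, read 0.13 and -1.19 in siG9a, against 0.67 and -0.61 in control, and was 68.4% and 67.3% of control within the pairs (adjusted p = 0.0326, paired limma fit). Mcm6, another subunit, differed by -0.43 and -0.46, and Chaf1b, a chromatin assembly factor, by -0.46 and -0.43; neither was called.

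Mitosis genes were lower in both pairs for 70 of 95 measured and higher for 9, with a median of -0.22 (-0.26 in pair 1, -0.20 in pair 2). All 5 calls were lower: Plk1, Cdc20, Cdkn3, Spag5 and Nusap1. The kinetochore and centromere genes were lower in both pairs for 20 of 22 and higher for 0, with a median of -0.26, but none was called. The spindle and microtubule genes had 18 of 23 lower in both pairs and a median of -0.31. Spindle checkpoint genes had the median closest to 0 of these roles, -0.07, with 4 of 9 lower in both pairs.

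Plk1, the kinase that drives mitotic entry and spindle assembly, read -0.13 and -0.76 in siG9a, against 0.48 and -0.07 in control. No siG9a array reached a control array. It differed by -0.65 ± 0.11 (adjusted p = 0.0114, paired limma fit), leaving 65.5% and 61.8% of control. Cdc20, which activates the ubiquitin ligase that triggers anaphase, read -0.14 and -1.24 in siG9a, against 0.49 and -0.66 in control (adjusted p = 0.0248). Its groups overlap because replicate 2 lay lower than replicate 1 in both treatments; all 3 other Cdc20 probes were lower in both pairs.

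Cdkn3 encodes a phosphatase of cyclin-dependent kinases and read -0.52 and -0.61 in siG9a, against -0.02 and 0.02 in control. Nusap1, a spindle microtubule protein, read -0.48 and -0.62 in siG9a, against 0.04 and 0.02 in control. Spag5, which encodes the spindle protein astrin, read -0.55 and -0.88 in siG9a, against -0.04 and -0.23 in control. None of these 3 genes overlapped between the groups, but their other probes differed by much less. The other Cdkn3 probe gave -0.13 and -0.03, the 3 other Nusap1 probes lay between -0.17 and 0.08, and both other Spag5 probes had no common direction in the pairs. Gtse1, a microtubule-binding protein of dividing cells outside the list, was lower in both pairs on all 3 of its probes (-0.69 and -0.61 on the probe used). Troap, another spindle-associated gene, met the size rule (-0.53 and -0.52) without a call (adjusted p = 0.0768).

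**Figure D2:**
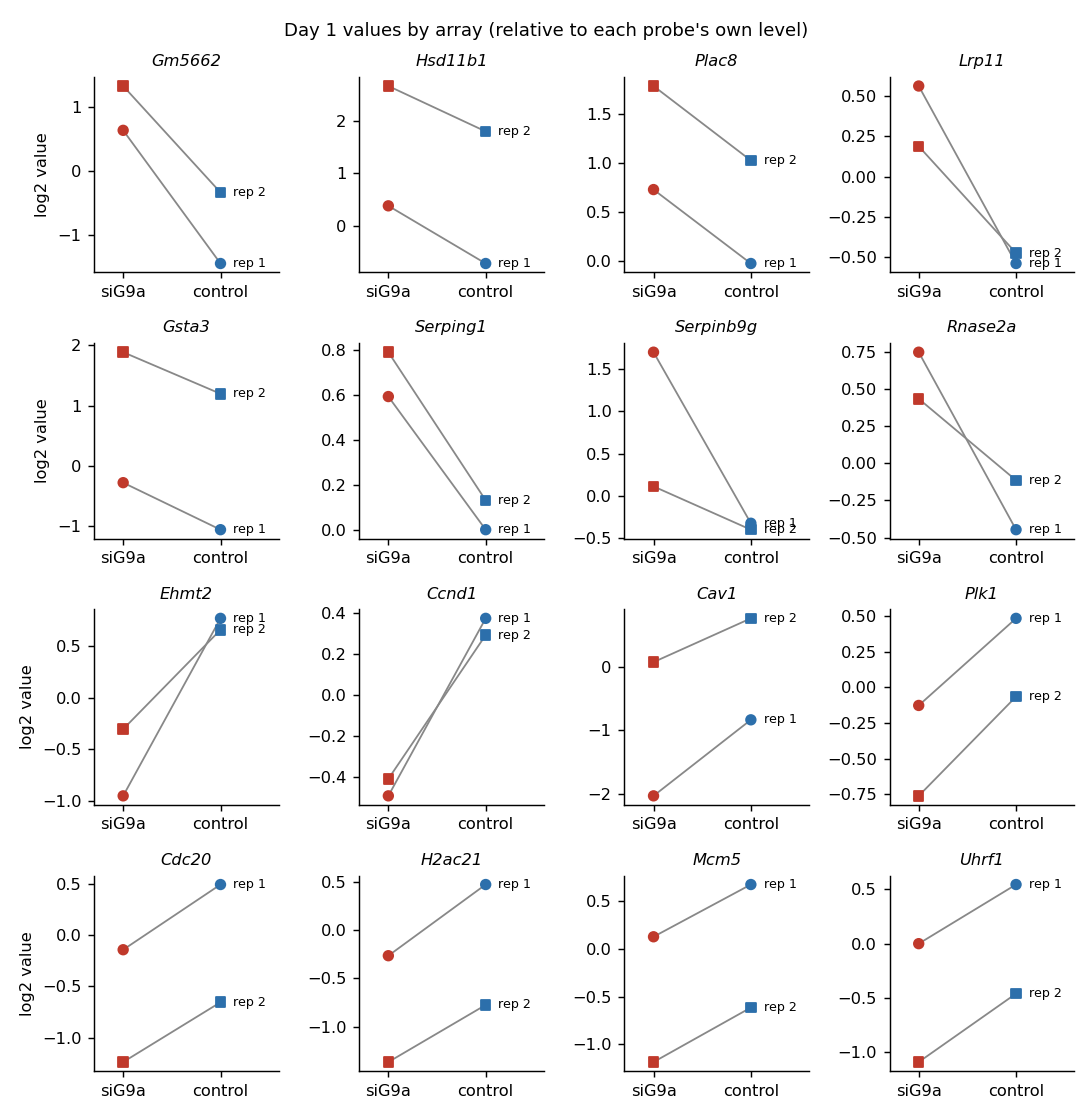
Day 1 values of 16 member genes on each array (log2 value relative to each probe's own level, with siG9a left and control right in each panel, circles for replicate 1 and squares for replicate 2, lines joining pairs). Ehmt2, Ccnd1 and Plk1 are lower on both siG9a arrays than on both control arrays, whereas for Hsd11b1, Gsta3, Cav1, Cdc20 and H2ac21 the replicates stand apart and the difference lies within each pair.

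Replication-dependent histone genes are transcribed mainly while DNA is copied, and 10 H2A genes lie in the lower group. The family was set apart after these values were seen, and its near-identical copies mean that a probe may read several of them. Among the 16 H2A genes measured, 10 were called, all lower, and 1 was higher in both pairs; the median was -0.59 (-0.56 in pair 1, -0.53 in pair 2), and -0.95 after quantile normalization. For all 10 called genes the groups overlapped, since replicate 2 lay lower in both treatments. The median of the family was -0.03 without control replicate 1 or siG9a replicate 2, -1.13 without control replicate 2 and -1.16 without siG9a replicate 1, with the 10 called genes between -1.42 and 0.16. H2ac21 read -0.27 and -1.37 in siG9a, against 0.47 and -0.78 in control (-0.66 ± 0.11, adjusted p = 0.0091, paired limma fit). H2ac7 had the largest mean difference of the family at day 1, -0.71 ± 0.11, with 65.3% and 57.0% of control. H2ac18 and H2ac19 differed by only 0.07 each, and H2ac1, H2ac4, H2ac6 and H2ac8 lay between -0.09 and 0.10.

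Promoters of mitotic genes carry a short element called CHR, often near a CCAAT box, through which they are held off in cells that are not dividing. In RefSeq windows of 300 bases (GRCm38.p6, 250 bases before a gene's start to 50 after it), the CHR letters TTTGAA were found on either strand in 17.4% of the 15469 measured genes with a window. They were found in 50 of 79 mitosis genes with a window (63.3%), in 10 of 44 replication genes (22.7%) and in 9 of 16 H2A genes (56.2%). A gene counted when any of its windows held the letters. CCAAT occurred in 42.1% of all measured genes with a window, in 68.4% of the mitosis genes and in all 16 H2A genes. The E2F letters (TTTGGCGC, TTTCCCGC, TTTCGCGC or TTTGCCGC, either strand) occurred in 3.46% of all measured genes with a window. They occurred in 15 of 44 replication genes (34.1%), 8 of 79 mitosis genes (10.1%) and 5 of 16 H2A genes (31.2%). Of the 24 genes called lower that have a window, 12 held the CHR letters, 20 held CCAAT and 7 held E2F letters. Without the H2A genes these counts were 5, 10 and 2 of 14. Of the 9 genes called higher with a window, 3 held the CHR letters (33.3%), 6 held CCAAT (66.7%) and 0 held E2F letters. These matches describe the letters in the windows and were not tested as sites.

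The windows of Plk1, Cdc20, Spag5 and H2ac21 are shown because they belong to the called genes and hold both kinds of letters in different layouts. Other called genes do not: Nusap1 holds neither kind. Gtse1, Mcm5 and Uhrf1 hold CCAAT without the CHR letters, and Mcm5 and Uhrf1 hold E2F letters too. Capitals mark CHR and CCAAT letters (TTCAAA and ATTGG on the opposite strand), each sequence running 5′ to 3′ on the gene's strand. They lie at chr7:122159185-122159484 (plus strand, Plk1), chr4:118437294-118437593 (minus strand, Cdc20), chr11:78301341-78301640 (plus strand, Spag5) and chr3:96219635-96219934 (plus strand, H2ac21).
Plk1: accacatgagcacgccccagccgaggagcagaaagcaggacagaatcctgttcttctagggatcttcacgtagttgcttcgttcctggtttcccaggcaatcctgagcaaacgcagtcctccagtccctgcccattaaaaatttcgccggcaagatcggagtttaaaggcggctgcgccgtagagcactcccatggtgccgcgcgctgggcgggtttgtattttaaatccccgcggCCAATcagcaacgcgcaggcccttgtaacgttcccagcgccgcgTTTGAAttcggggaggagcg
Cdc20: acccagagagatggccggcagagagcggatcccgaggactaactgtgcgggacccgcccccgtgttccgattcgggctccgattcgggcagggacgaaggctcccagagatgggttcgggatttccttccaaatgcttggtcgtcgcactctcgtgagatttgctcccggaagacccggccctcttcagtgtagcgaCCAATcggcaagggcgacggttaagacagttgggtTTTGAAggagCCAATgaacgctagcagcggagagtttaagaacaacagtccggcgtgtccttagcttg
Spag5: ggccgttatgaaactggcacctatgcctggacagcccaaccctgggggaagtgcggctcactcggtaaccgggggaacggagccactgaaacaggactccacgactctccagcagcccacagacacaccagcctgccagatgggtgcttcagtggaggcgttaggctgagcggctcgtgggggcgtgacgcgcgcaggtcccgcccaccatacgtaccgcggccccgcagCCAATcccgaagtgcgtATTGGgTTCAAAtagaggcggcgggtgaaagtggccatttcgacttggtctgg
H2ac21: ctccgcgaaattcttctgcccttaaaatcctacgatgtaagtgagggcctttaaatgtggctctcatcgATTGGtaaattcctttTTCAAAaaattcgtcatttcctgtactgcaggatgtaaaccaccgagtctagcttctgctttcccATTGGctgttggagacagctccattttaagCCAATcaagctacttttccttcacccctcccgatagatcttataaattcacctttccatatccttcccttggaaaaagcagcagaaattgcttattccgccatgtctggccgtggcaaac
In Plk1 the CCAAT letters overlap no CHR letters and begin 14 bases before the start, with the CHR letters beginning 30 bases after it. In Cdc20 the CHR letters begin 18 bases before the start, between a pair of CCAAT boxes. In Spag5 the CHR letters, on the opposite strand, follow opposite-strand CCAAT letters after a single base. In H2ac21 the letters lie farther out, with CHR 165 bases before the start and CCAAT boxes on both sides of it.

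**Figure D3:**
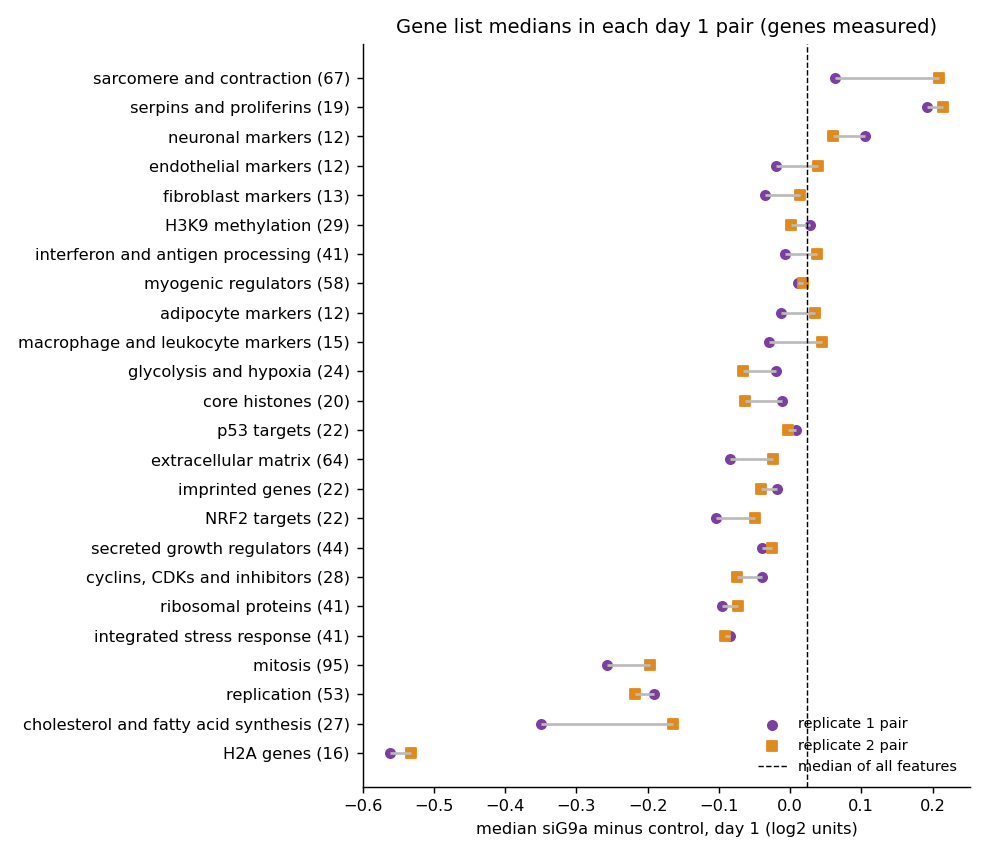
Median siG9a minus control difference at day 1 over the measured genes of each list (number in parentheses), in the replicate 1 pair (circles) and the replicate 2 pair (squares), in log2 units, with the dashed line at the median of all features, 0.024. H2A genes, set apart after their values were seen, lie lowest in both pairs. The cholesterol and fatty acid, replication and mitosis lists come next in each pair, in differing order. Serpin and proliferin genes lie highest. Next come neuronal markers in the replicate 1 pair (0.10) and sarcomere genes in the replicate 2 pair (0.21). The other lists, too, were chosen with earlier results of these data known.

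Sterol and fatty acid genes were lower too, though no single member was called. Of 27 measured, 19 were lower in both pairs and 1 higher, with a median of -0.24 (-0.35 in pair 1, -0.16 in pair 2). Cyp51, an enzyme of cholesterol synthesis, read 0.13 and -0.60 in siG9a, against 0.51 and -0.08 in control (adjusted p = 0.181, paired limma fit). Stard4, a carrier of sterols within the cell, differed by -0.65 and -0.41 (adjusted p = 0.0644), and Elovl6, a fatty acid elongase, by -0.49 and -0.46 (adjusted p = 0.119). Scd2, a fatty acid desaturase, differed by -0.46 and -0.35 at day 1 but by 0.65 and 0.27 at day 0. Leaving out 1 array breaks a pair, so that the gap between the replicates enters. The median of this list then lay between -0.59 and 0.05, above 0 only without control replicate 1. That of replication lay between -0.48 and 0.04, above 0 without control replicate 1 (0.02) or siG9a replicate 2 (0.04), and that of mitosis stayed between -0.39 and -0.09.

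In the lists of protein synthesis the shifts were smaller. Of 41 ribosomal protein genes, 25 were lower in both pairs and 2 higher, with a median of -0.08. Of 41 genes of the integrated stress response, which is set off by amino acid shortage or unfolded proteins, 22 were lower in both pairs and 6 higher, with a median of -0.11. Trib3, a pseudokinase induced in that response, differed by -0.36 and -0.44, and Vldlr, a lipoprotein receptor, by -0.44 and -0.33, with neither called.

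The remaining lists had small medians. Core histones, had 3 of 20 higher in both pairs and 8 lower, with a median of -0.02 and 2 called, both lower (H2ac21 and H2ac20). Imprinted genes had 7 of 22 higher and 12 lower, with a median of -0.06 and Cdkn1c as the 1 call. Secreted growth regulators had 10 of 44 higher and 19 lower (-0.07), glycolysis and hypoxia genes 6 of 24 higher and 11 lower (-0.002), and p53 targets 7 of 22 each way (-0.03, which was 0.03 after quantile normalization), with no call in these 3.

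At the cell surface and in the matrix, Cav1 was the clearest lower gene. It encodes the coat protein of caveolae, the small pits of the plasma membrane. It read -2.04 and 0.08 in siG9a, against -0.84 and 0.77 in control (-0.95 ± 0.12, adjusted p = 0.000933, paired limma fit). The siG9a value was 43.4% and 61.9% of its control, while the replicates of 1 treatment differed by more than that. Prelp, a leucine-rich matrix protein, read -1.23 and 2.17 in siG9a, against -0.19 and 2.69 in control (adjusted p = 0.0153). Ptn, the secreted growth factor pleiotrophin, differed by -1.02 and -0.40 and was called as well (adjusted p = 0.0326), although its other probe went 0.18 and 0.07.

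In the matrix list, 25 of 64 genes were lower in both pairs and 10 higher, where 22.5% of all features were lower and 33.2% higher. Its median was -0.04, against 0.024 over all features, and none of its genes was called. Rrbp1, a ribosome-binding protein of the endoplasmic reticulum, and Pdlim2, an adaptor of the actin cytoskeleton, were called as lower (-0.59 ± 0.11 and -0.55 ± 0.11). All 3 other Pdlim2 probes and the other Rrbp1 probe were lower in both pairs, by less.

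Among genes that were higher in siG9a, the largest difference belonged to Gm5662. It read 0.63 and 1.32 in siG9a, against -1.43 and -0.33 in control, a difference of 1.86 ± 0.14 (adjusted p = 1.25e-06, paired limma fit). That is 3.62-fold on the assumed base, and both siG9a arrays lay above both control arrays. Its other probe differed by only 0.20 and 0.05. Among the 21 higher features, Serpinb9g (mean 1.27) and the unnamed probes ILMN_1233975 (1.36 and 1.06) and ILMN_2534585 (1.11 and 1.16) followed by mean. Both unnamed probes ran much like Gm5662 across the arrays. In siG9a at day 0, Gm5662 read -0.02 and 2.37, ILMN_1233975 0.08 and 1.93, and ILMN_2534585 -0.01 and 1.69. Whether these probes read 1 shared signal was not tested. Lrp11, a relative of the LDL receptor, read 0.56 and 0.19 in siG9a, against -0.54 and -0.47 in control, and was called (0.88 ± 0.12). Of the higher features without a named role here, the unnamed probe ILMN_2443164 and 2310079P10Rik were called and Tceal5 was not (adjusted p = 0.441). Chil1, a secreted chitinase-like protein, was higher by 0.61 and 0.53 and was not called (adjusted p = 0.0768).

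Enzymes of steroid, lipid mediator and detoxification pathways were among them. Hsd11b1, which regenerates active glucocorticoid inside cells, read 0.38 and 2.67 in siG9a, against -0.73 and 1.80 in control (0.99 ± 0.12, adjusted p = 0.000519, paired limma fit). Of its 3 other probes, 2 were higher in both pairs (1.33 and 0.76; 1.02 and 0.62). Alox5ap, a membrane protein that leukotriene synthesis needs, read 0.19 and 1.21 in siG9a, against -0.58 and 0.62 in control, and its other probe moved the same way (0.92 and 0.40).

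The glutathione S-transferases Gsta3 and Gstk1 joined them. Gsta3 read -0.28 and 1.89 in siG9a, against -1.06 and 1.20 in control (adjusted p = 0.0112, paired limma fit), but its other probe went -0.02 and -0.07. Gstk1 read 0.30 and 0.52 in siG9a, against -0.21 and -0.05 in control, without a call (adjusted p = 0.0768). The NRF2 target list that holds Gsta3 had 3 of 22 genes higher in both pairs and 10 lower, and a median of -0.06; Nqo1, a quinone reductase of that list, differed by -0.40 and -0.25.

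Serpins and proliferins are secreted or cytosolic proteins encoded by clusters of similar genes. The list joins both families and was chosen with earlier results of these data known. Of 19 measured, 9 were higher in both pairs and 3 lower, where 33.2% and 22.5% of all features were. The median was 0.09 (0.19 in pair 1, 0.21 in pair 2). There were 4 calls, all higher (0.0604% of all features): Serpinb9g, Serpinb9f, Serping1 and Prl2c4. Serping1, the C1 inhibitor of complement, read 0.59 and 0.79 in siG9a, against 0.002 and 0.13 in control, and its other probe differed by 0.72 and 0.75. Serpinb9g read 1.70 and 0.11 in siG9a, against -0.32 and -0.40 in control, so that replicate 1 carried most of its difference (2.02, against 0.51 in replicate 2). Serpinb9f, of the same group of similar genes whose probes may not tell them apart, showed the same unevenness (1.77 and 0.39), and so did Prl2c4, a proliferin (1.10 and 0.51).

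Genes known from blood and immune cells also lie in the higher group. Plac8, a small cysteine-rich protein, read 0.73 and 1.79 in siG9a, against -0.02 and 1.03 in control (0.76 ± 0.11, adjusted p = 0.0034, paired limma fit), with almost the same difference in each pair. Rnase2a, an eosinophil-associated ribonuclease, read 0.75 and 0.43 in siG9a, against -0.45 and -0.11 in control. Ifitm1, an interferon-induced membrane protein, read -0.01 and 0.54 in siG9a, against -1.13 and 0.01 in control; of its 4 other probes, 2 were higher in both pairs and 2 had mixed signs. Interferon-stimulated genes were otherwise split, with 16 of 31 higher in both pairs and 9 lower and a median of 0.07, and none was called.

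Markers of other cell types gave no calls. The 15 macrophage and leukocyte markers had 3 genes higher in both pairs and 2 lower, with a median of 0.005, and their list medians were -0.07 and 0.19 in siG9a, against -0.12 and 0.15 in control. Endothelial (12), adipocyte (12) and fibroblast markers (13) likewise had 3 higher and 2 lower each, and neuronal markers (12) had 6 higher and 3 lower. The part of other cells in the values above was not tested, and fewer cells of a type and less RNA per cell cannot be told apart here. Levels at or near 0 cannot be read from these values, so no marker can be called absent.

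Contractile genes were more often higher than lower. Of 67 measured, 36 were higher in both pairs and 5 lower, with a median of 0.12 (0.06 in pair 1, 0.21 in pair 2), and 1 was called. Without control replicate 2 or siG9a replicate 1 the median was -0.50 or -0.44, and without either of the other arrays 0.77 or 0.75. That gene was Ckmt2, the mitochondrial creatine kinase of muscle, which read 1.44 and -0.28 in siG9a, against 0.28 and -0.63 in control (adjusted p = 0.0326, paired limma fit). Z-disc and M-band genes were higher in both pairs for 11 of 15 and lower for 0. Tcap, which caps titin at the Z-disc, read 1.84 and -1.51 in siG9a, against 1.19 and -2.06 in control, and Myoz2, a Z-disc protein that binds calcineurin, read 1.45 and -0.89 in siG9a, against 0.89 and -1.39 in control. Both met the size rule without a call (adjusted p = 0.312 and 0.259), as did Nmrk2, a muscle kinase of the NAD salvage pathway (0.66 and 0.59).

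No regulator of the muscle programme was called at day 1. Of 58 myogenic regulators, 20 were higher in both pairs and 16 lower, with a median of 0.02 that became -0.02 with median centring. Myod1, a master factor of the lineage, read 0.92 and -0.19 in siG9a, against 0.71 and -0.19 in control. Myog, which drives differentiation, read 0.68 and -0.10 in siG9a, against 0.57 and -0.05 in control. Tead2, a DNA-binding partner of YAP, differed by -0.48 and -0.28, and Fst, the secreted inhibitor of myostatin, by 0.47 and 0.43, neither of them called.

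**Figure D4:**
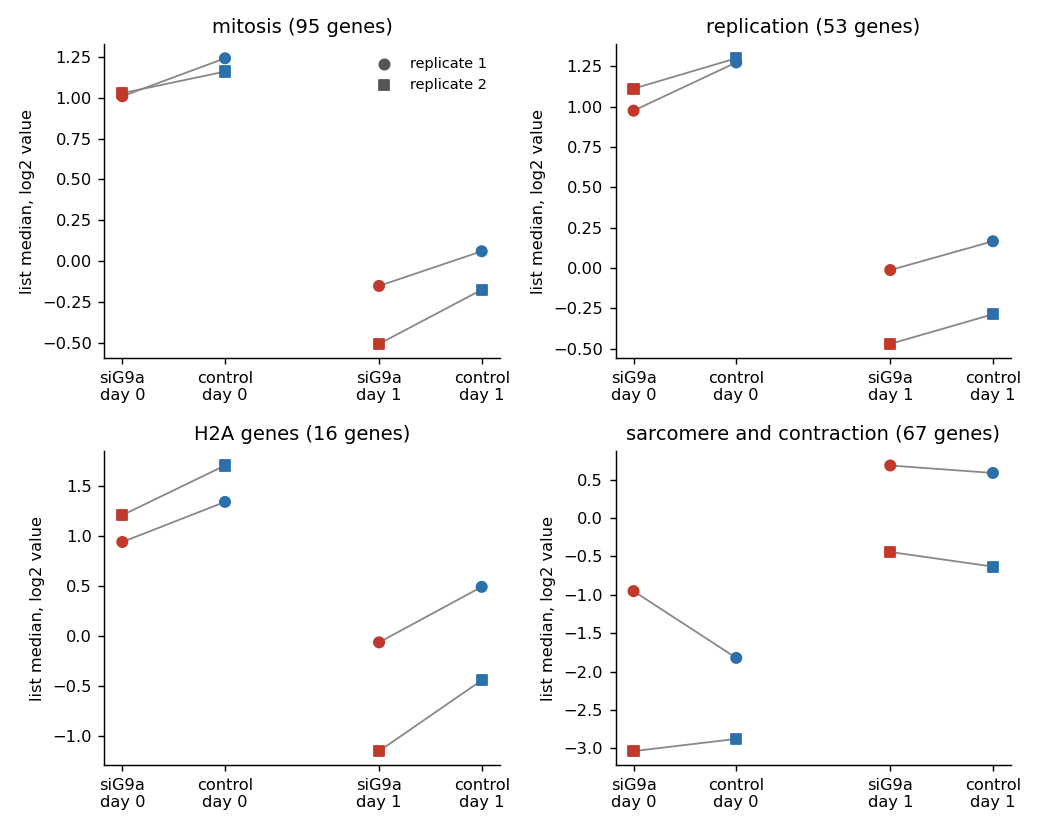
Median value of 4 gene lists on each array (log2 value relative to each probe's own level), with siG9a left of control at day 0 and at day 1, circles for replicate 1, squares for replicate 2 and lines joining pairs. In the mitosis, replication and H2A panels the siG9a median lies below its control in all 4 pairs, and in the sarcomere panel it lies above its control in 3 of 4. The H2A genes were set apart after their values were seen.

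The day 0 comparison shares no array with that of day 1, but it is not free of the choice of members. Day 0 values entered the SD by which 1 probe was taken per gene, equal replicate numbers may mark related cultures, and earlier results of these data were known. There, 18 of the 21 higher features were higher in both day 0 pairs, where 20% of all features were, and 23 of the 26 lower features were lower in both, where 34.2% of all were. Among members measured by 1 probe, which leave no choice of probe, these counts were 10 of 11 higher and 10 of 11 lower features. The share among all features with 1 probe is not given here. Those higher features include the unnamed probes ILMN_1233975 and ILMN_2534585, which ran much alike, and those lower features include H2A genes. The lower features are not independent of each other. They include 10 H2A genes, whose probes may read several copies, and Ehmt2, the target of the siRNA at both days. The paired fit called 10 of the 21 as higher at day 0 (0.537% of all features) and 8 of the 26 as lower (0.274%). In that fit each feature has the same SE at day 0 as at day 1. The day 0 calls are therefore not independent of the day 1 calls. The median difference of the higher features was 0.76 at day 1 and 0.60 at day 0, and that of the lower features was -0.63 at day 1 and -0.39 at day 0.

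Some members differed at day 1 with little at day 0 on the probe used. Cdc20 differed by -0.13 and 0.19 at day 0. Its other probes did not all show this, with -0.34 and -0.10, -0.31 and 0.02, and -0.50 and 0.28 at day 0. The first of these had -0.10 and -0.21 at day 1. Prelp differed by 0.14 and -0.36 at day 0. The unnamed probe ILMN_2443164 had 0.74 and 0.60 at day 1, against -0.12 and -0.02 at day 0. Gsta3 went the other way in size, with 0.78 and 0.69 at day 1, against 1.66 and 1.15 at day 0. H2ac21 was lower by -0.81 in each day 0 pair and Ehmt2 by -2.05 and -1.28. The test of the day 1 effect minus the day 0 effect called 1 of 31443 features in the paired limma fit (0.00318%), C1qtnf3, and 0 in the model of group means, with 18 at an unadjusted p under 0.05 there. The smallest adjusted p of a member in that test was 0.255.

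**Figure D5:**
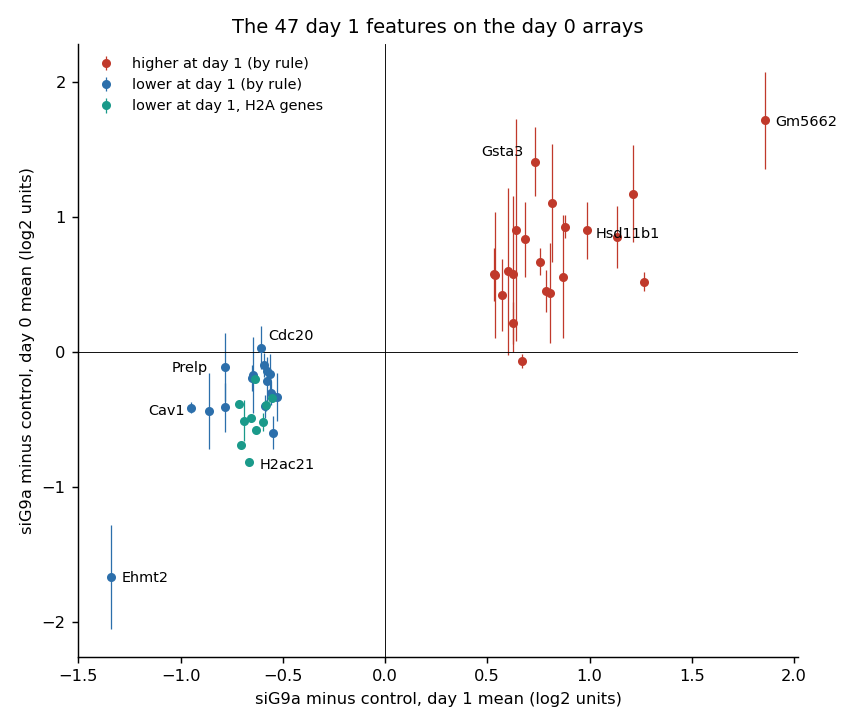
Mean siG9a minus control difference of the 47 features at day 1 (horizontal axis, chosen by the rule) and on the day 0 arrays (vertical axis, with bars from the lower to the higher of the 2 pairs), in log2 units. Of the red features, 18 of 21 were higher in both day 0 pairs. Of the blue and green ones, 23 of 26 were lower in both. Cdc20, on the probe used, and Prelp lie near 0 at day 0.

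The change over the day in control cells is given beside these values, and it shares the control arrays of day 1 with the comparison. Day 1 minus day 0 in control had a median of -1.34 over mitosis genes, -1.45 over replication genes and -1.46 over H2A genes, and of 2.56 over sarcomere and contraction genes. For Plk1 the same difference was -2.40 in siG9a, against -1.94 in control. Ccnd1 gave -2.46 in siG9a, against -2.09 in control. Ehmt2 itself gave 0.13 in siG9a, against -0.20 in control.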

How the data were processed

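RNA from 4 groups of 2 biological replicates (siG9a and control, day 0 and day 1) was hybridised to Illumina arrays. The deposited processed table holds log2 values (base assumed, not stated) of 45281 probes, relative to each probe's own level; the median over the arrays was 0 within 1e-05 in 32.9% of probes. The software, background correction and normalization behind it are unstated in the labels and headers used here. The second deposited table has 16 per-sample columns whose names match no sample, and they were not used here.

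Of the probes, 35784 carried 1 symbol and 9497 none. Symbols came from the platform's gene table and were updated through Entrez ID (28620) or accession (2637), with 4527 kept. Each of 21946 genes was represented by its most variable probe (largest SD, group ignored), which gave 31443 features with the unnamed probes. No dim probes were removed. The number of arrays limits the precision.

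limma 3.58.1 (R 4.3.3) fitted 4 group means over all 8 arrays, with empirical Bayes moderation and no trend (4 residual and 4.59 prior degrees of freedom). The paired fit, added after the data were seen, has 1 term per day and replicate number (2 and 17.35). Its pairing follows the replicate numbers in the titles: deviations from group means correlated across features between all 6 pairs of groups, with r between 0.613 and 0.865. Adjusted p-values are Benjamini-Hochberg over 31443 features; with 2 arrays a side, a two-sided exact permutation p is never below 0.333. The labels do not say whether the duplicates are separate cultures, so no p-value speaks for more than these samples. In the paired fit the SE comes from how the pair differences of both days varied. It leans mostly on the spread shared over all features (17.35 prior against 2 residual degrees of freedom).

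The named genes were the 15 higher and the 15 lower with the largest smaller pair difference, Ehmt2, Ehmt1, up to 4 members of each list in each direction past 0.25, and 13 regulators; called features outside that rule, Gldc, Cdk1, C1qtnf3 and the H2A family were named after their values were seen. The 23 lists held 830 different genes, of which 769 were measured. Members, lists and rules were chosen with earlier results of these data known. Promoter windows were RefSeq's, build GRCm38.p6. Alternatives were other moderation, blocks, centring, quantile normalization, the mean over probes, other thresholds and leaving out arrays.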

Additional observations from a re-analysis of the deposited data

Results flagged for a closer look

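C1qtnf3, a secreted relative of complement C1q and the 1 feature whose siG9a effect differed between the days in the paired limma fit, was higher in siG9a by 0.34 and 0.31 at day 1 and by 1.59 and 1.37 at day 0. It read 1.09 and 0.28 in siG9a, against 0.75 and -0.03 in control, at day 1, and -1.44 and -3.32 in siG9a, against -3.03 and -4.69 in control, at day 0. The day 1 effect minus the day 0 effect was -1.15 (adjusted p = 0.0105).

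For 7 other named genes both day 1 pairs went one way and both day 0 pairs the other, without passing the test of that difference. Scd2 had a day 1 minus day 0 effect of -0.87 (adjusted p = 0.148, paired limma fit) and Chac1, a glutathione-degrading enzyme of the integrated stress response, of -0.69 (0.412). Slc1a4, an amino acid transporter, had -0.63 (0.406), Mef2c, a muscle transcription factor, -0.53 (0.502), and Timp3, an inhibitor of matrix proteases, -0.42 (0.506). Myf5, a myogenic factor, had 0.19 (0.733) and Cdkn1b 0.18 (0.743). No other probe of Cdkn1b, Mef2c or Timp3 showed this pattern; both other Cdkn1b probes were lower in siG9a in both pairs at day 1 (-0.25 and -0.12; -0.01 and -0.04) and at day 0 (-0.12 and -0.18; -0.04 and -0.08).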

How the results depend on the processing

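Without a block, limma called 0 features at day 1 under robust moderation, day 1 arrays alone, the mean over probes, median centring, quantile normalization and each left-out array, and 0 with 1 term for the replicate number. The fits with a replicate block within day were chosen after seeing the data. They called 48 features, or 21 with the mean over probes, 60 with median centring and 70 with quantile normalization. With day 1 arrays alone the count was 379. That fit had 1 residual and 12530.47 prior degrees of freedom, so its SE came almost wholly from the spread shared over all features. For the difference between the days, the paired fit called 1 feature, 1 with centring and 0 with quantile normalization or the mean over probes; fits without that block called 0. The cause of these differences was not tested.

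The count of features higher in both pairs was 12 with centring, 45 with quantile normalization, 14 with the mean over probes, 41 at 0.4 and 5 at 0.7, and 68 to 205 in 1 pair alone (without replicate 1 or without replicate 2). The count of lower features was 35, 65, 17, 57 and 2 under the same settings, and 56 to 199 in 1 pair alone. The background correction and detection filter planned for the non-normalized table were not run, because its columns match no sample by name.

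Of 83 named genes, 36 changed sign in some setting, 6 of them other than by leaving out an array. With the mean over probes Cdkn1a gave 0.025, Cdkn1b -0.053, Ehmt1 0.021 and Rb1 -0.019; with quantile normalization Cdkn1a gave 0.041; with centring Myf5 gave -0.009 and Myog -0.008. Leaving out 1 day 1 array breaks a pair, so the gap between replicates enters the difference. The lowest and highest values were then: 2310079P10Rik (-0.321 to 1.894), Cav1 (-2.005 to 0.110), Cdkn1a (-0.517 to 0.505), Cdkn1b (-0.194 to 0.298), Chac1 (-1.068 to 0.364), Chil1 (-0.656 to 1.799), Col6a3 (-1.681 to 0.681), E2f1 (-0.755 to 0.018), Ehmt1 (-0.528 to 0.388), Fst (-0.159 to 1.059), Gbp2 (-0.324 to 1.295), Gsta3 (-0.393 to 1.863), H2-T23 (-1.126 to 0.421), H2ac10 (-1.338 to 0.028), H2ac13 (-1.170 to 0.005), H2ax (-0.757 to 0.112), Hsd11b1 (-0.277 to 2.253), Id1 (-0.585 to 0.336), Klf4 (-0.444 to 0.121), Mb (-0.433 to 1.584), Mcm5 (-1.215 to 0.097), Mcm6 (-0.994 to 0.099), Mef2c (-1.321 to 0.797), Mmp3 (-0.781 to 1.527), Myf5 (-0.001 to 0.053), Myh8 (-1.567 to 2.517), Myod1 (-0.446 to 0.663), Myog (-0.362 to 0.417), Myoz2 (-0.633 to 1.706), Nmrk2 (-0.417 to 1.665), Rb1 (-0.249 to 0.384), Rpl38 (-0.791 to 0.056), Tcap (-1.077 to 2.276), Tceal5 (-0.726 to 2.004), Thbs2 (-1.474 to 0.47), Timp3 (-0.966 to 0.205). The signal over background is unknown here and may limit dim probes.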
